A study of Mus musculus with 6 samples.

Results

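The comparison set 2 arrays of mouse dendritic cells given lipopolysaccharide (LPS) for 18 h against 2 arrays of unstimulated dendritic cells, 4 of the 6 arrays of the series. The arrays were chosen by their labels alone. All 10558 probes of the authors' log2 table that the platform annotation pairs with 1 gene were compared, and these probes measure 7989 genes. Every array came from mice of 6 weeks of age with the genotype C57BL/10NAGCSnAi-(KO) Rag2 on a C57BL background, so the controls carried the Rag2 knockout too. Rag2 helps cut and join antigen receptor genes, and without it no mature T or B cells form. Cells from bone marrow were grown for 6 days with the growth factor GM-CSF and the cytokine IL-4 at 1.5 ng/ml each. The LPS group received LPS at 1 µg/ml for 18 h. The remaining 2 arrays hold cells with reactive oxygen species (ROS) generated inside them: hematoporphyrin, a light-sensitive porphyrin, was given at 1 µg/ml for 1 h, then light for 3 min and 18 h of culture. Whether the unstimulated cells spent a further 18 h in culture is not stated, so LPS and time in culture cannot be told apart. Nor is it stated that the replicates of a group were separate cultures or animals, and the p-values then measure the spread between these arrays, which may be technical.

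Dendritic cells take up antigen and present it to T cells. LPS, a component of the outer membrane of Gram-negative bacteria, is bound by CD14 and by the receptor complex of TLR4 and MD-2. One branch of signalling runs through the adaptor MyD88 to NF-kappaB, which drives inflammatory cytokines. The other runs through TRIF to IRF3 and interferon beta, and interferon then acts back on the cell through its receptor to switch on antiviral genes. NF-kappaB binds kappaB sites, and the interferon-stimulated response element (ISRE) is the promoter motif through which interferon acts. In culture, LPS is widely used to mature dendritic cells, a process in which uptake gives way to presentation of antigen and co-stimulation of T cells.

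The promoters of 5 genes that respond through these branches in textbook accounts are shown first. They were picked because motifs of these branches occur in them, and they do not stand for the risen genes at large. Isg15, Ifit3, Cxcl10 and Cxcl1 rose by the rule given below, while Nfkbia, at a difference of 0.47, did not pass. Irf7, Ifit2 and Tnf rose as well, and held neither motif from 250 bases before the start to 50 after it. Among genes that fell, S100a9 held a kappaB motif and Rpl4, Rpl5 and Rpl27a held ISRE cores. Each line gives the 250 bases before the RefSeq start of the gene on its own strand, in lower case, with matches to the ISRE core GAAANNGAA or to the kappaB motifs GGGANTTTC and GGGANTTCC on either strand in capitals. Isg15 lies on the minus strand (chr4:156200819-156201068 of GRCm38.p6), Ifit3 on the plus strand (chr19:34583279-34583528), Cxcl10 on the minus strand (chr5:92348890-92349139), Cxcl1 on the plus strand (chr5:90890995-90891244) and Nfkbia on the minus strand (chr12:55492648-55492897).
Isg15: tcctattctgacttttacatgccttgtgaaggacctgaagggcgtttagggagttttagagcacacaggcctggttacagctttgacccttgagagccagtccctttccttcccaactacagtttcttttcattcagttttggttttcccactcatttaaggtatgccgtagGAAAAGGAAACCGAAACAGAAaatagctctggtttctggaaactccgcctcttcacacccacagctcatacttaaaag
Ifit3: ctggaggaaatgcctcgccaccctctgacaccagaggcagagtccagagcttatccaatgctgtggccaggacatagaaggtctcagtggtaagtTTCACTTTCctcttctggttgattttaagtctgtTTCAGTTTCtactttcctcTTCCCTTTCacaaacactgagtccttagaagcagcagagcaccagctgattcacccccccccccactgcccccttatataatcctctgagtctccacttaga
Cxcl10: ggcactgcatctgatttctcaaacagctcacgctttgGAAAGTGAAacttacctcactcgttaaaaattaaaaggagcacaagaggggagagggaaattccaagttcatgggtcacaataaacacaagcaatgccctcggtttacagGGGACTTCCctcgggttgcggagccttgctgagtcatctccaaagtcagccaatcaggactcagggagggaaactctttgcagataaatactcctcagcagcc
Cxcl1: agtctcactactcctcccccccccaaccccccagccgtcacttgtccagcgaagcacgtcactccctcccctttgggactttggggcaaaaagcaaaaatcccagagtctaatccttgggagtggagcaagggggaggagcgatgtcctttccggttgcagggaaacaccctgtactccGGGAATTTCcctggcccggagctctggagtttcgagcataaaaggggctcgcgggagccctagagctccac
Nfkbia: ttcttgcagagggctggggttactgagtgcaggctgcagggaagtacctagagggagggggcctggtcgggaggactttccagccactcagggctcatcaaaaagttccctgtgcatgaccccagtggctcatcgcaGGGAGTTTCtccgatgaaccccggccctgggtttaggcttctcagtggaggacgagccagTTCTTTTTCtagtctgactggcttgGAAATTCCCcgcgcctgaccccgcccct
Isg15 held 3 overlapping ISRE cores that begin 78, 72 and 66 bases before the start. Ifit3 held 3 as well, 155, 121 and 102 bases before the start. Cxcl10 held 1 ISRE core 213 bases before the start and 1 kappaB motif 103 bases before it. Cxcl1 held 1 kappaB motif, 71 bases before the start, and Nfkbia held 2 kappaB motifs and 1 ISRE core. A match is a description of the letters and does not show that a factor binds there.

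Arrays of 1 group resembled each other far more than arrays of the other group. Values are log2 intensities throughout, and a difference of 1 on this scale is a 2-fold ratio. Replicate arrays correlated across probes at r = 0.995 for LPS and 0.996 for unstimulated cells, while LPS and unstimulated arrays correlated at 0.891 to 0.892. The median absolute difference between replicate arrays was 0.0920 for LPS and 0.0847 for unstimulated cells. Before normalisation, the LPS arrays were dimmer, with a mean signal of 545 and 529 against 765 and 704. They also detected fewer probes above background, 10428 and 10482 against 11267 and 11356 of 25697. The authors' quantile normalisation removes such a difference in overall signal. Their values carry no background subtraction, so the fold changes of dim genes are understated. Over the 981 genes called below, the median absolute difference was 1.43 as deposited and 2.00 after background correction.

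LPS was accompanied by a broad shift in both directions. A gene is said to have risen or fallen where limma's Benjamini-Hochberg adjusted p was under 0.05 over all probes and the difference was at least 1. By this rule 439 genes rose (5.5% of all genes compared) and 542 fell (6.78%). The LPS and unstimulated arrays did not overlap for any of them, but the minimum difference leaves little room for overlap. The 99th percentile of the absolute difference between replicate arrays was 0.44 for LPS and 0.46 for unstimulated cells. The lack of overlap is therefore no separate support for the calls. At the adjusted p alone 4470 genes passed (56%). The largest changes were rises, since 133 genes rose by at least 2 and 57 by at least 3, against 99 and 25 that fell as far. Of the called genes 44.8% had risen. This share depends on the scaling: with no scaling between arrays 217 genes rose and 1592 fell, so that 12.0% had risen, and the median gene stood 0.46 lower. With each array shifted to a common median the median gene stood 0.16 higher. Differences are therefore relative to the bulk of genes. Of the genes compared, 91 were above background on both LPS arrays and on neither unstimulated array, and 18 of these are among the risen genes. The reverse held for 440 genes, of which 54 are among the fallen genes. The lowest detected level was higher on the LPS arrays, 7.48 on both against 7.38 on both unstimulated arrays. Its part in the gap between these counts was not tested.

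**Figure D1:**
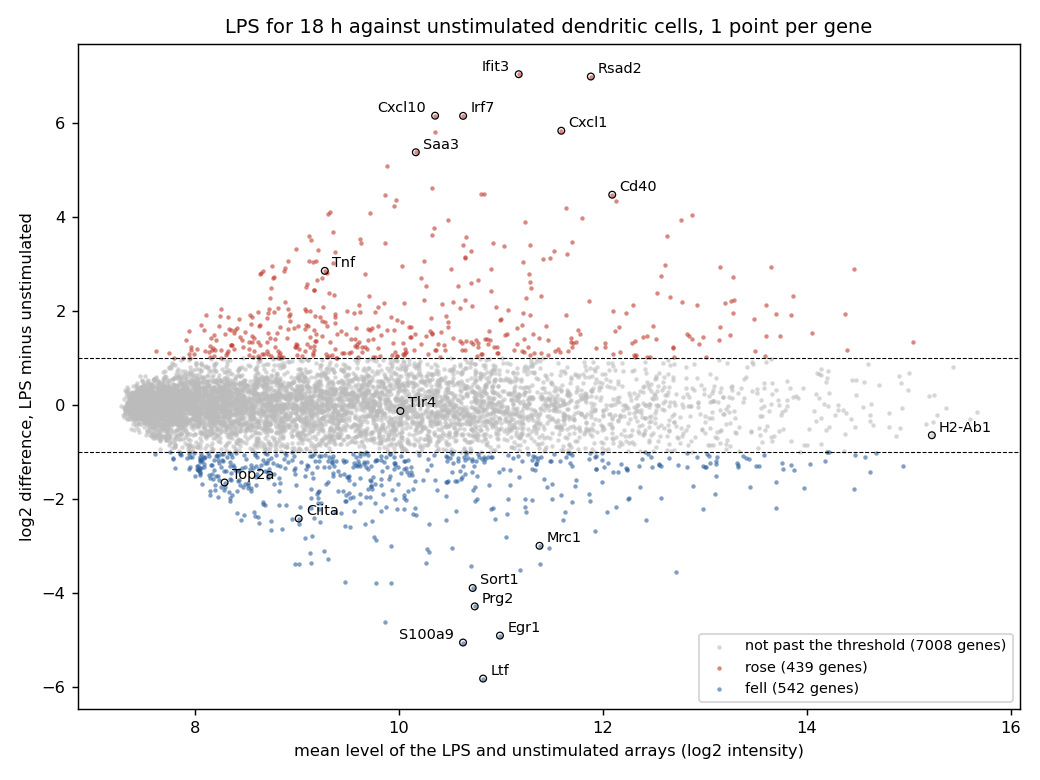
Log2 difference of LPS minus unstimulated cells (vertical axis) against the mean log2 intensity of the 4 arrays (horizontal axis), with 1 point for each of 7989 genes and dashed lines at a difference of 1 in either direction. The rises reach 7.05 (Ifit3) and the falls 5.83 below 0 (Ltf), while Tlr4 lies near 0.

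Among the genes that sense LPS, the co-receptor rose and the receptor itself did not pass the threshold. Tlr4, the signalling receptor for LPS, stood at 10.13 and 10.03 on the unstimulated arrays and at 10.02 and 9.89 on the LPS arrays, a difference of -0.13 ± 0.11 (SE, adjusted p = 0.36). Cd14, the co-receptor that hands LPS to TLR4, stood at 12.45 and 12.44 against 13.89 and 13.79, a rise of 1.40 ± 0.08 (adjusted p = 1.21e-07). Tlr2, the receptor for bacterial lipoproteins, went from 11.27 and 11.42 to 13.67 and 13.77, a rise of 2.38 ± 0.11 (adjusted p = 1.95e-08). Arrays of the groups did not overlap for Cd14 or Tlr2, as for all 981 called genes. Tlr7, an endosomal receptor for single-stranded RNA, rose by 1.69, Cd180, a TLR4 relative, by 1.29 and the adaptor Myd88 by 1.07 ± 0.09. Tlr13, a receptor for bacterial ribosomal RNA, fell by 1.33. Ticam1, which encodes TRIF, differed by 0.40 and Ly96, which encodes MD-2, by 0.32, and neither passed the threshold. Of 20 measured genes of LPS sensing, 5 rose and 1 fell, with a median difference of 0.40 that became -0.12 with no scaling.

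Among the subunits and inhibitors of NF-kappaB, 4 regulators rose and no subunit passed the threshold. Tnip1, a partner of the ubiquitin editor A20, stood at 11.36 and 11.31 in unstimulated cells and at 12.95 and 13.04 after LPS, a rise of 1.66 ± 0.09. Its 3 probes ranged from 0.38 to 1.77. Nfkbiz, an inducible nuclear co-regulator, rose by 1.45 ± 0.12, Nfkbie, an inhibitor of the kappaB family, by 1.42 ± 0.16 and Bcl3, another nuclear co-regulator, by 1.25. Tnfaip3, which encodes A20, stood at 10.40 and 10.13 against 11.12 and 11.21. Its difference of 0.90 ± 0.11 (adjusted p = 2.85e-05) lay below the minimum of 1, as did that of Nfkbia, the classical inhibitor, at 0.47 ± 0.12. Without the first unstimulated array the difference of Tnfaip3 was 1.03 and passed. The subunit genes Rela, Relb and Rel differed by 0.15, 0.15 and 0.16. In all 4 of 14 measured genes rose and 0 fell, with a median of 0.55 that became -0.03 with no scaling. Nfkbiz and Nfkbie lost the call there, at 0.81 and 0.76, and 1 of the 14 genes then rose. Among suppressors of cytokine signalling and phosphatases of kinases, Usp18, which restrains the interferon receptor, stood at 10.89 and 10.71 against 14.78 and 14.70, a rise of 3.94 ± 0.09. Socs3 rose by 1.30 ± 0.08. Cish, Socs2 and Dusp6, a phosphatase of ERK kinases, fell by 1.11, 1.25 and 1.38, and 7 of the 12 did not pass.

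The 4 largest rises were of genes that respond to interferon in textbook accounts, namely Ifit3, Rsad2, Cxcl10 and Irf7. Irf7, the factor that amplifies interferon production, stood at 7.62 and 7.48 in unstimulated cells and at 13.71 and 13.72 after LPS, a rise of 6.16 ± 0.09 (adjusted p = 3.69e-12), equal to 71.6-fold. Stat2 rose by 2.44 ± 0.09, from 7.90 and 7.99 to 10.46 and 10.31. Irf9, its DNA-binding partner, rose by 1.23. Irf1 stood at 11.68 and 11.69 against 12.55 and 12.49, a difference of 0.84 ± 0.10 that lay below the minimum, although other probes of Irf1 reached 1.52. Stat4 fell by 1.18 and Batf3, a factor of cross-presenting dendritic cells, by 1.51 ± 0.10. Irf8, Irf4 and Irf3 differed by -0.13, -0.18 and -0.22. Of 16 measured factors of these families 4 rose and 2 fell, and their median of 0.14 became -0.49 with no scaling.

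Antiviral effectors rose almost as a block: 23 of 25 measured rose, 1 fell and 1 did not pass, with a median difference of 2.93 against -0.00 for all genes. Ifit3, an interferon-induced protein that works in complexes with its relatives, stood at 7.66 and 7.65 on the unstimulated arrays and at 14.80 and 14.60 on the LPS arrays, a rise of 7.05 ± 0.09 (adjusted p = 3.69e-12), the largest of all genes. Its 3 probes gave rises of 3.15 to 7.05. Rsad2, which encodes the antiviral enzyme viperin, went from 8.46 and 8.31 to 15.37 and 15.39, a rise of 7.00 ± 0.11. Isg15, a ubiquitin-like protein joined to other proteins, was not above background on either unstimulated array and stood at 12.44 on both LPS arrays, which is at least 33.2-fold higher. A bound of this kind sets the LPS mean against the lowest signal above background where the gene's own value was lower. Ifit2 rose by 5.83 ± 0.08, Mx2, a dynamin-like antiviral GTPase, by 4.48 and Oasl2, of the oligoadenylate synthetase family, by 4.24. The exception was Ifi27, which fell by 1.64. Samd9l differed by 0.06.

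Interferon-induced GTPases, which attack the membranes around intracellular microbes, rose in 8 of 9 cases with a median of 2.62. Igtp stood at 9.20 on both unstimulated arrays and at 12.64 and 12.67 after LPS, a rise of 3.46 ± 0.08. Gbp5 was not above background in unstimulated cells and was at least 7.27-fold higher after LPS, and Irgm2 rose by 2.90 ± 0.08. All 3 were clear of overlap between the groups, as were all 981 called genes. Of 8 sensors of nucleic acids in the cytosol, 4 rose. Dhx58, a regulator of RNA sensing, rose by 3.40 ± 0.09, the RNA-activated kinase Eif2ak2 by 3.11 ± 0.09 and Ddx58, which encodes RIG-I, by 2.29 ± 0.11. Zbp1, Cgas and Aim2 differed by 0.51, 0.45 and -0.26 and did not pass.

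**Figure D2:**
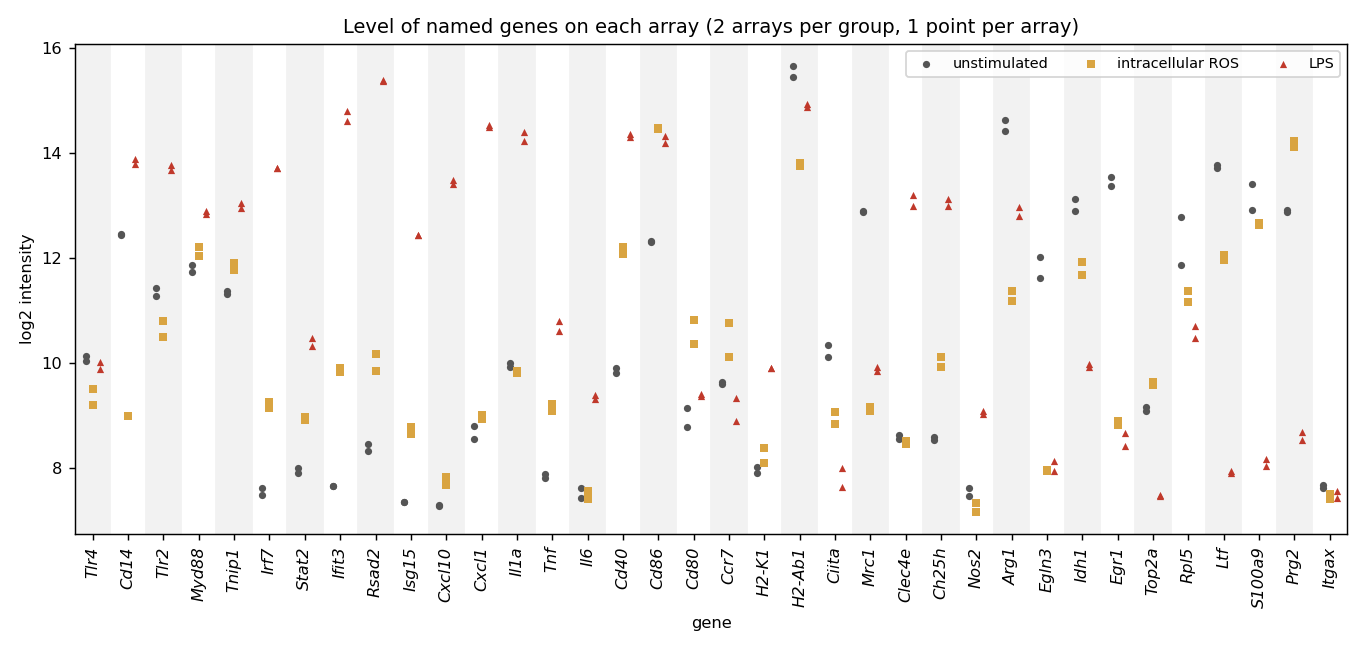
Log2 intensity (vertical axis) of named genes on each of the 6 arrays, with unstimulated arrays as grey circles, intracellular ROS arrays as yellow squares and LPS arrays as red triangles. Ifit3, Rsad2, Irf7 and Cxcl10 show the widest gaps upward, and Ltf, S100a9 and Egr1 downward, while replicate points lie close together.

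Chemokines split into a group that rose steeply and a group that fell. Cxcl10, which draws activated T cells, was not above background in unstimulated cells at 7.29 and 7.26 and stood at 13.40 and 13.48 after LPS, which is at least 66.5-fold higher (adjusted p = 3.69e-12). Cxcl1, which draws neutrophils, went from 8.55 and 8.79 to 14.49 and 14.54, a rise of 5.84 ± 0.10. Cxcl2, with a like role, went from 8.40 and 8.64 to 12.14 on both arrays, a rise of 3.62 ± 0.10. The monocyte chemokines Ccl7 and Ccl2 rose by 3.59 and 3.02, and Ccl5, which draws T cells, by 1.97 ± 0.10. Ccl12 was above background on 1 of 2 unstimulated arrays and rose by 3.07, at least 8.31-fold. Ccl17 and Ccl24, both associated with type 2 responses, fell by 1.90 and 2.18. Ccl3, Ccl9 and Ccl22 did not pass, at 0.47, 0.47 and 0.16. In all 8 of 16 measured chemokines rose and 2 fell, with a median of 1.22.

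Of 20 measured cytokines 9 rose and 1 fell. Il1a stood at 9.91 and 10.00 in unstimulated cells and at 14.39 and 14.22 after LPS, a rise of 4.35 ± 0.09. Its relative Il1b stood at 11.95 and 11.89 against 14.64 on both arrays, a rise of 2.72 ± 0.08. Il1rn, the natural antagonist of both, rose by 3.28 ± 0.10, so agonists and antagonist rose together. Tnf, the central inflammatory cytokine, went from 7.89 and 7.81 to 10.80 and 10.61, a rise of 2.86 ± 0.10. Il6 went from 7.42 and 7.61 to 9.38 and 9.31, a rise of 1.83 ± 0.10. Il12a, the p35 subunit of interleukin 12, was not above background in unstimulated cells and was at least 6.37-fold higher after LPS. Il15, a survival factor of memory T and natural killer cells, rose by 2.30. Il23a and Ebi3 differed by 0.44 and 0.84 and did not pass, and Tnfsf13b, which encodes the B cell factor BAFF, fell by 1.49.

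Among 19 receptors for chemokines and cytokines 4 rose and 3 fell, with a median of -0.10. Ccrl2, an atypical receptor, went from 9.43 and 9.49 to 12.38 and 12.32, a rise of 2.89 ± 0.08. Il15ra, which presents interleukin 15 to neighbouring cells, rose by 2.20 ± 0.08 beside the rise of Il15 itself. Ifngr1, the ligand-binding chain of the interferon gamma receptor, went from 11.25 and 11.26 to 9.07 and 9.06, and fell by 2.20 on the log2 scale, while Ifngr2 differed by -0.14. Ccr7, the receptor that guides mature dendritic cells to lymph nodes, stood at 9.59 and 9.64 against 9.33 and 8.89. Its difference of -0.50 ± 0.19 (adjusted p = 0.0422) was under the minimum and was in the opposite direction to the rises of the co-stimulatory genes.

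Of 15 co-stimulatory and checkpoint molecules 8 rose and 0 fell, with a median of 1.08. Cd40, through which T cells license dendritic cells, stood at 9.90 and 9.81 in unstimulated cells and at 14.36 and 14.30 after LPS, a rise of 4.48 ± 0.09, and its 4 probes gave rises of 1.37 to 4.48. Cd86, the ligand of CD28, went from 12.29 and 12.31 to 14.33 and 14.19, a rise of 1.96 ± 0.08, and its 3 probes gave rises of 1.56 to 4.39. Cd80, the other ligand of CD28, stood at 8.77 and 9.14 against 9.41 and 9.36, a difference of 0.43 ± 0.15 (adjusted p = 0.0307) that did not reach the minimum. Slamf1, a receptor that binds itself on neighbouring cells, rose by 3.08 ± 0.11 and the inhibitory ligands Cd200 and Cd274 (PD-L1) by 2.80 and 1.95. Cd83, a maturation marker, and Fscn1, the actin bundler of dendrites, did not pass, at -0.20 and -0.70.

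Presentation genes of the 2 MHC classes moved in opposite directions. Of 17 measured class I genes 11 rose and 0 fell, with a median of 1.83. H2-K1, a classical class I heavy chain, stood at 7.89 and 8.02 against 9.90 and 9.91, a rise of 1.95 ± 0.10. Nlrc5, the transactivator of class I genes, went from 9.32 on both arrays to 11.89 and 11.81, a rise of 2.53 ± 0.08. Tap1, the peptide transporter, rose by 2.11 ± 0.09, while B2m, the shared light chain, differed by 0.61 and did not pass. Class I genes are near copies of each other, so a probe may read more than 1 of them.

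Of 13 class II genes 0 rose and 8 fell, with a median of -1.11. On the ROS arrays the list's median was -1.28 against the same unstimulated arrays. Ciita, the transactivator of class II genes, stood at 10.11 and 10.35 in unstimulated cells and at 7.64 and 7.99 after LPS, and fell by 2.42 on the log2 scale (adjusted p = 5.83e-08). H2-DMa, a chain of the exchange factor that loads peptide, went from 13.19 and 13.23 to 11.04 on both arrays and fell by 2.17. H2-DMb2, above background on 1 of 2 LPS arrays, was at least 5.02-fold lower, and H2-Eb1, a chain of the presenting molecule, went from 14.35 and 14.29 to 12.59 and 12.56. H2-Ab1, a chain of the other presenting molecule, stood at 15.65 and 15.45 against 14.87 and 14.94, a difference of -0.64 ± 0.09 that was under the minimum. H2-Aa, its partner chain, fell by 1.63. The arrays of the groups did not overlap for any of these genes, as for all 981 called genes. H2-Ab1 was not called, and the share of uncalled genes without overlap is not given here.

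Receptors for uptake and recognition of microbes changed in both directions, with 5 of 19 rising and 7 falling, a median of -0.10 that became 0.04 with median scaling. Clec4e, which encodes Mincle, a receptor for mycobacterial glycolipid, went from 8.55 and 8.63 to 12.98 and 13.19, a rise of 4.50 ± 0.09. Fcgr1, the high-affinity receptor for IgG, went from 7.63 and 7.64 to 10.72 and 10.66, a rise of 3.05 ± 0.08. Mrc1, the mannose receptor, went from 12.89 and 12.87 to 9.84 and 9.93, and fell by 3.00, and Mgl2, a galactose lectin, by 2.17. Clec4b1 went from 11.78 and 11.84 to 8.70 and 8.78, and fell by 3.07. The inhibitory IgG receptor Fcgr2b fell by 1.35 beside the rises of the activating receptors Fcgr1 and Fcgr4, the latter by 1.58.

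Of 18 inducible enzymes and secreted products 9 rose and 3 fell. Saa3, an acute phase protein, went from 7.54 and 7.41 to 12.80 and 12.92, a rise of 5.39 ± 0.09. Ch25h, which makes the sterol 25-hydroxycholesterol, went from 8.59 and 8.53 to 12.99 and 13.11, a rise of 4.49 ± 0.10. Hdc, which makes histamine, rose by 4.19 ± 0.09 and Ptges, which makes prostaglandin E, by 2.70. The enzymes that compete for arginine moved apart. Nos2, which makes nitric oxide, went from 7.46 and 7.62 to 9.08 and 9.03, a rise of 1.52 ± 0.09. Arg1, an arginase linked to interleukin 4, went from 14.62 and 14.42 to 12.96 and 12.80, and fell by 1.64, while the mitochondrial arginase Arg2 rose by 1.28.

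Genes of glycolysis and the hypoxia response fell in 12 of 20 cases and rose in 1, with a median of -1.13. On the ROS arrays the list's median was -1.61 against the same unstimulated arrays. Both medians share these controls, whose culture time is unstated, so they are not independent of each other. Egln3, a hydroxylase that marks the hypoxia factor HIF for destruction, stood at 12.02 and 11.61 in unstimulated cells and at 7.94 and 8.13 after LPS, and fell by 3.78 on the log2 scale. Aldoc, an aldolase, was above background on 1 of 2 LPS arrays and was at least 9.91-fold lower. Pfkl, a phosphofructokinase, went from 12.72 and 12.82 to 10.39 and 10.59, and fell by 2.28, although its second probe differed by -0.34. Hk2, the inducible hexokinase, stood at 14.56 on both unstimulated arrays and at 13.78 and 13.67 after LPS, a difference of -0.84 ± 0.09 that was under the minimum. Ldha, which makes lactate, differed by -0.20 ± 0.11 (adjusted p = 0.154). The gene that rose was Hk3, a hexokinase of myeloid cells, by 1.23.

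Of 27 genes of the citric acid cycle and the respiratory chain 0 rose and 7 fell, with a median of -0.68. Idh1, the cytosolic isocitrate dehydrogenase placed with them, went from 12.89 and 13.11 to 9.98 and 9.91, and fell by 3.05. Next, Fh1, which encodes fumarase, fell by 1.32, and Cox4i1, a subunit of cytochrome oxidase, fell by 1.29. In sterol metabolism 4 of 14 genes fell and 1 rose, against 6.78% and 5.5% of all genes. Sqle, an epoxidase of cholesterol synthesis, fell by 1.73, Fdps, an earlier enzyme of that route, by 1.18 and Abcg1, a cholesterol exporter, by 1.17. The other probe of Sqle differed by -0.80. The riser was Nr1h3, the sterol receptor LXR alpha, by 1.07. Of 26 lysosomal genes 2 rose and 2 fell, near the shares of all genes (5.5% and 6.78%). Npc2, a carrier of lysosomal cholesterol, rose by 1.59 ± 0.14. The protease gene Ctsk went from 11.18 and 11.12 to 10.26 and 9.77, a difference of -1.13 that was -0.89 without the second LPS array. Ctsh, another protease, fell by 1.04, and its difference was -0.91 without that array.

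Of 18 genes of the integrated stress response, a pathway that slows translation under stress, 6 rose and 1 fell, with a median of 0.66. Nupr1 went from 9.50 and 9.66 to 12.95 and 13.03, a rise of 3.41 ± 0.09. Ddit3, which encodes the factor CHOP, went from 9.87 and 9.97 to 13.04 and 13.07, a rise of 3.14 ± 0.08. Slc7a11, the cystine importer that is also a target of the oxidant sensor NRF2, rose by 2.22 ± 0.09. Of 12 NRF2 targets it alone passed, a count near the shares of all genes (5.5% rose and 6.78% fell). Hmox1, the heme oxygenase, differed by -0.37 and Nqo1, a quinone reductase, by 0.81.

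Of 17 genes of cell survival and death 5 rose, 1 fell and 11 did not pass. Over all genes 5.5% rose and 6.78% fell. Casp4, which encodes the mouse caspase-11 that senses LPS in the cytosol, stood at 9.14 and 8.99 against 12.32 and 12.37, a rise of 3.28 ± 0.10, although its 3 probes ranged from 0.27 to 3.28. Mlkl, the executor of necroptosis, rose by 3.14 ± 0.09, Casp1, the inflammasome caspase, by 1.67 ± 0.08 and Gsdmd, the pore former that it cleaves, by 1.18. The pro-apoptotic Bcl2l11 fell by 1.25.

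Immediate early genes, which respond to growth factors within minutes, fell in 7 of 12 cases and rose in 0, with a median of -1.24. On the ROS arrays the list's median was -1.65 against the same unstimulated arrays. Egr1 went from 13.54 and 13.36 to 8.67 and 8.41, and fell by 4.91 on the log2 scale (adjusted p = 6.61e-11). Egr2 went from 12.94 and 12.96 to 9.34 and 9.53, and fell by 3.52, and Klf2, a factor of quiescent leukocytes, from 11.70 and 11.63 to 7.91 and 7.85, and fell by 3.79. Fos fell by 3.39, whereas Junb and Jund differed by -0.20 and -0.14 and did not pass.

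**Figure D3:**
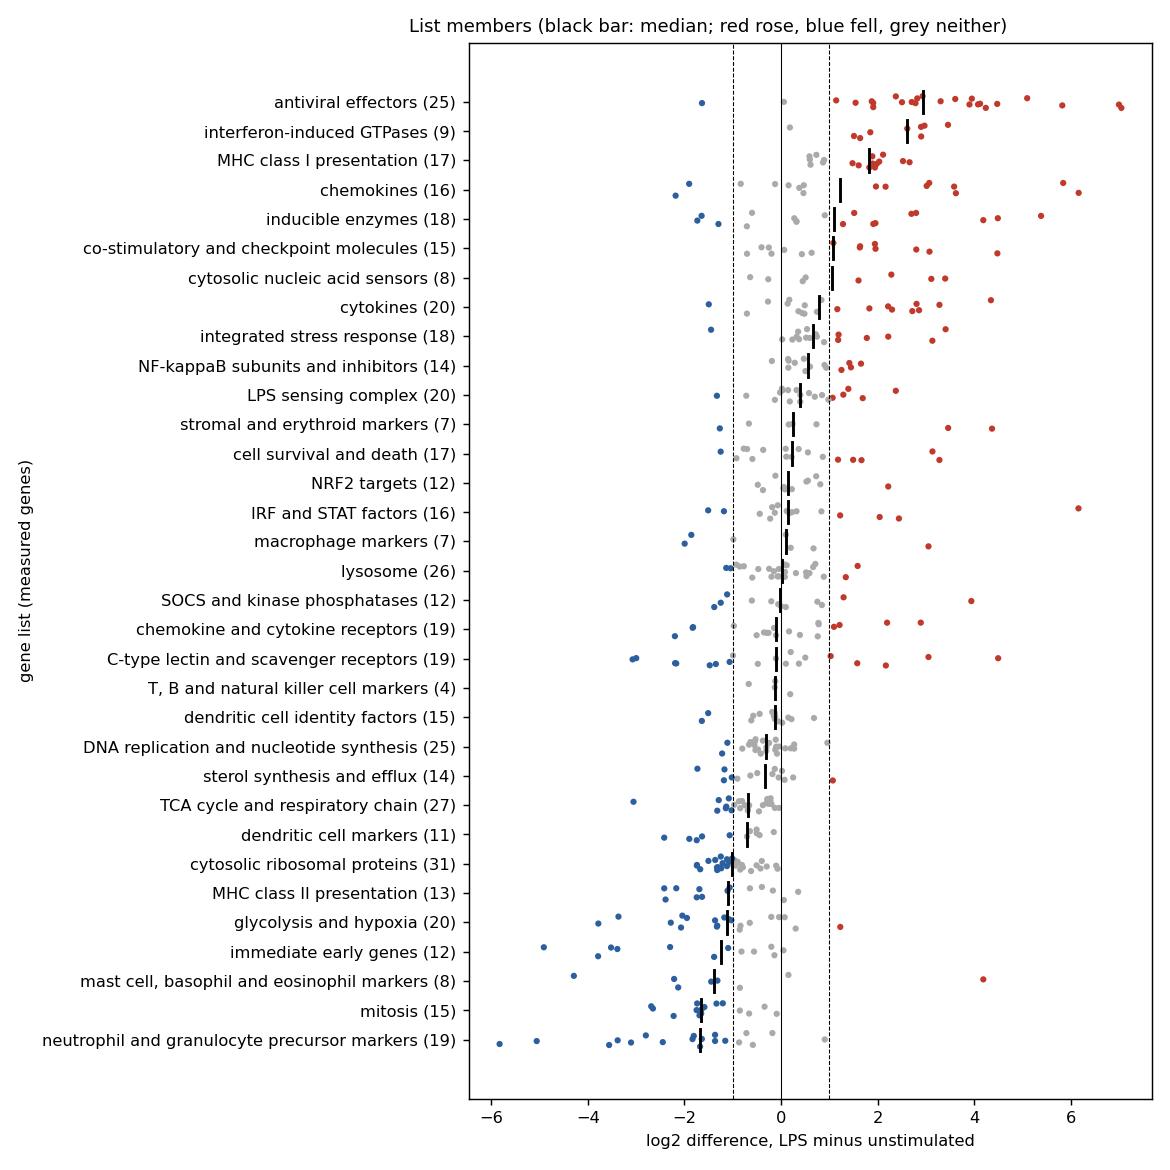
Log2 difference of LPS minus unstimulated cells (horizontal axis) for the measured members of the 33 gene lists (vertical axis, with the number measured), each point a gene and each black bar the list's median. The antiviral effectors have the highest median at 2.93, and mitosis and the neutrophil and granulocyte precursor markers lie lowest at -1.65 and -1.67.

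Genes of mitosis fell in 11 of 15 cases, with a median of -1.65. Of the 15, 9 were not above background on the LPS arrays, and with bounds in place of the fitted values where they could be set the median was -1.63. Cenpa, the histone of centromeres, stood at 13.30 and 13.23 in unstimulated cells and at 10.55 and 10.61 after LPS, and fell by 2.69 on the log2 scale. Top2a, a topoisomerase of dividing cells, stood at 9.07 and 9.16 and was not above background on either LPS array, which is at least 3.10-fold lower. Anln, a scaffold of the cleavage furrow, was at least 6.00-fold lower. Of 25 genes of DNA replication and nucleotide synthesis 2 fell and 0 rose, with a list median of -0.30, and 5 were not above background on the LPS arrays. The share that fell was near the 6.78% of all genes. Pold1, a DNA polymerase subunit, fell by 1.22. Tk1, a thymidine kinase, was not above background on the LPS arrays and was at least 2.04-fold lower. Cytosolic ribosomal proteins fell in 16 of 31 cases and rose in 0, with a median of -1.01. Rps16 went from 13.06 and 13.40 to 11.39 and 11.59, and fell by 1.74. Rpl5 fell by 1.74 too, but its unstimulated arrays stood at 11.86 and 12.78, further apart than those of the other named ribosomal genes. The 15 others stood between -0.07 (Rps20) and -0.99 (Rpl23).

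Markers of other blood cells moved with LPS. Of 19 measured markers of neutrophils and their precursors 14 fell and 0 rose, with a median of -1.67, and 7 were not above background on the LPS arrays. Ltf, a granule protein, stood at 13.72 and 13.76 on the unstimulated arrays and at 7.94 and 7.89 on the LPS arrays, and fell by 5.83 (adjusted p = 3.69e-12), the deepest of all genes, although a second probe differed by -0.76. S100a9 went from 12.91 and 13.41 to 8.03 and 8.17, and fell by 5.06, and its partner S100a8 from 14.55 and 14.44 to 10.97 and 10.90, and fell by 3.56. The list was not uniform. Lcn2, a granule protein that other cells also make, stood at 13.16 and 13.13 against 14.06 and 14.04, a difference of 0.91 that was under the minimum. Chil3, a chitinase-like protein of myeloid cells, differed by -0.18. The markers' summed signal was 88146 and 90241 on the unstimulated arrays and 42691 and 42120 on the LPS arrays. Without Ltf, S100a9 and S100a8 it was 42965 and 43206 against 40175 and 39678. Lcn2 and Chil3 carried most of the sum on the LPS arrays, and without these 2 it was 56498 and 58185 against 5335 and 5191. In such bulk RNA fewer cells of a type and less RNA per cell cannot be told apart. The part of these cells in the falls of other genes was not tested.

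Markers of mast cells, basophils and eosinophils gave 5 falls and 1 rise among 8 measured. Prg2, the major basic protein of eosinophil granules, went from 12.88 and 12.90 to 8.67 and 8.53, and fell by 4.29. The rise was that of Hdc, named above among the enzymes. Their summed signal was 12381 and 11930 on the unstimulated and 14442 and 16126 on the LPS arrays. Without Hdc the other 7 summed to 11605 and 11214 against 1719 and 1597. Among 7 macrophage markers C1qb fell by 1.99 and Mertk by 1.86 while Fcgr1 rose, and the summed signal was 22928 and 25120 against 19807 and 21604. Among 7 stromal and erythroid markers Vcam1, an adhesion molecule, went from 7.86 and 7.72 to 12.22 and 12.09, a rise of 4.37 ± 0.09, and Dcn, a matrix proteoglycan, rose by 3.46 ± 0.10. Hba-a1, an erythroid marker, went the other way and fell by 1.27. Col1a1 differed by 0.16, and the summed signal of the 7 markers was 3205 and 3175 against 9073 and 9123. Without Vcam1 and Dcn the other 5 summed to 2727 and 2731 against 1864 and 1891. Of 4 markers of T, B and natural killer cells none passed in either direction.

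The dendritic label was set beside its markers. Of 13 listed markers 11 were measured, and of these 0 rose and 5 fell. All 11 were above background on at least 1 array of each group. A measured probe had already been detected on at least 3 of the 6 arrays, so this detection is no test of the label. Itgax, which encodes the dendritic integrin CD11c, was dim, at 7.66 and 7.61 on the unstimulated arrays against lowest detected levels of 7.38 on both. It stood at 7.43 and 7.55 on the LPS arrays, above background on 1 of them. The class II chains' gene H2-Ab1 and Cd74, their chaperone, were above background on all 6 arrays. The markers' summed signal was 133494 and 124686 on the unstimulated and 67445 and 72492 on the LPS arrays. Most of this repeats the class II result, since 4 of the 5 falls are of Ciita, Cd74, H2-Aa and H2-Eb1. Without these 4 genes and H2-Ab1 the other 6 markers gave 1 fall, that of Dpp4, and summed to 22428 and 25321 against 16245 and 16234.

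The intracellular ROS arrays, cultured for the same 18 h, give the level of each gene after a treatment without LPS. The 117 genes that the naming rule picks included 107 past the threshold against unstimulated cells, and 86 differed between LPS and ROS by the same rule. Most were picked for large differences on these same LPS arrays, so neither count can be set against the shares of all genes. Over all genes 538 were higher after LPS than after ROS (6.73%) and 574 lower (7.18%). The medians of the glycolysis, immediate early and class II lists were lowered on the ROS arrays too, as given above. Those of mitosis and cytosolic ribosomal proteins were not, at 0.15 and 0.02 for ROS minus unstimulated. Ifit3 stood at 9.82 and 9.90 on the ROS arrays, between the other groups, and was 4.84 higher after LPS. Cd14 stood at 8.98 and 8.99 on the ROS arrays, below both other groups, and was 4.85 higher after LPS. Prg2 stood at 14.11 and 14.22 there, above both, and was 5.56 lower after LPS. Egr1, at 8.89 and 8.81, lay near its LPS level, with a difference of -0.31 that did not reach the minimum, and so did Egln3 at 7.95 and 7.96, with a difference of 0.08. Cd86, at 14.47 and 14.46, differed from its LPS level by -0.20. Cd80 was lower after LPS than after ROS, by 1.20 on the log2 scale, with ROS levels of 10.81 and 10.36.

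Promoter windows were then compared by the size of the rise. A RefSeq window of 250 bases before to 50 after the start was found for 6584 of the 7989 genes, and the first window listed was searched in each. Of the 99 genes with a window that rose by at least 2, 28.3% held the ISRE core (Wilson 95% interval 20.4 to 37.8, counting error only). Of the 44 that rose by at least 3 it was 20.5% (interval 11.2 to 34.5). The share was 9.70% of the 237 that rose by under 2, 8.99% of the 434 that fell and 6.79% of the 5814 not called. It was 7.37% over all genes compared and 8.57% over all 27025 genes with a window. The kappaB motifs were in 8.08% of the genes that rose by at least 2 (interval 4.15 to 15.1) in 3.39% of the genes compared and in 2.81% of all. A TATA box, TATAAA on either strand, was in 18.2% (interval 11.8 to 26.9), 7.67% and 14.2% in the same order. The lower ends of all 3 intervals lay above the share in the genes compared, and the interval of the TATA box spanned its share in all promoters. These intervals treat genes as independent, though the risen genes include families such as Oas and Gbp. The kappaB share rests on 8 of 99 genes. Whether any motif is enriched was not tested. Over all genes that rose the ISRE share was 15.2%, and it was 25.2% with no scaling and 10.1% at the adjusted p alone.

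**Figure D4:**
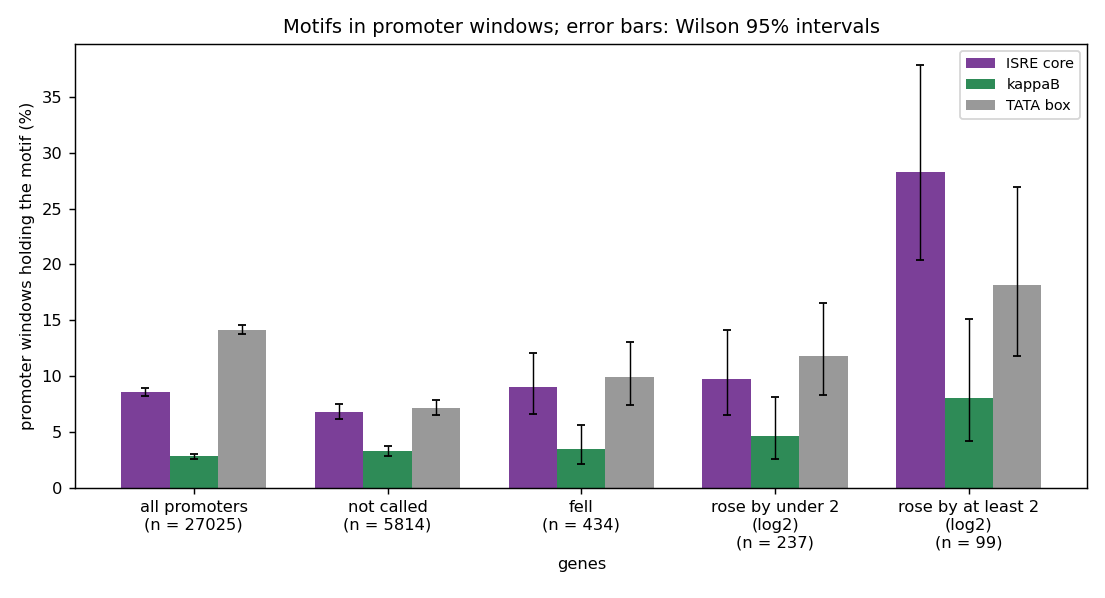
Percentage of promoter windows (vertical axis) that hold the ISRE core, a kappaB motif or a TATA box in 5 sets of genes (horizontal axis, with their number), with Wilson 95% intervals as error bars. The ISRE core stands at 28.3% in the genes that rose by at least 2 and at 8.57% in all promoters.

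Some of the changed genes lie side by side. With genes ordered by RefSeq position, 8 runs of at least 3 neighbouring measured genes rose together and 4 fell together. They held 28 and 12 of the 7984 genes placed, and over all genes 5.5% rose and 6.78% fell. How many runs would form by chance was not tested. Some runs hold genes of unlike names, such as Crcp, Tpst1, Rabgef1 and Sbds, which rose, and Rcbtb2, Rb1 and Lpar6, which fell. The longest run on chromosome 5 held Oas2, Oas3, Oas1b, Oas1g and Oas1a, a family whose active members make the activator of the antiviral RNase L. Oas2 and Oas1g rose by 3.31 and 3.95, while Oas3, Oas1b and Oas1a were not above background in unstimulated cells and were at least 6.27, 3.21 and 1.75-fold higher. On chromosome 3 Gbp7 and Gbp3 rose by 1.64 and 2.62 beside Gbp5, whose bound is given above, and on chromosome 19 Ccdc86, Ms4a8a, Ms4a7 and Ms4a6d rose by 1.41 to 2.35. On chromosome 17 H2-DMa and H2-DMb1 fell by 2.17 and 1.69 beside H2-DMb2, whose bound is given above, and on chromosome 6 the lectin genes Clec4a1, Clec4a3 and Clec4b1 fell by 1.48 to 3.07. Members of such families resemble each other in sequence, so a probe may read its neighbour's transcript too, which was not tested.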

How the data were processed

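RNA of 6 samples, 2 per group, was amplified to biotin-labelled cRNA and measured on Illumina bead arrays with 1 colour, per the labels' protocols. The deposited signal table holds the linear intensity of 25697 probes, which per the submitters' processing notes came from GenomeStudio 2009.2. The deposited table also gives detection p-values for 5 arrays. The limit of the second LPS array was recovered from the authors' choice of probes, since listed probes lay at or above 160.57 there and unlisted ones at or below 160.52. The authors' log2 table holds 11220 probes, each detected (p under 0.05) on at least 3 arrays. Its values equalled quantile normalised signals without background subtraction to within 0.0035, checked by rebuilding them. The number of arrays limits the precision.

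Here the log2 values were fitted with limma 3.58.1 (lmFit and eBayes) in R 4.3.3. The spread was estimated jointly over the 3 groups (residual degrees of freedom 3, prior 7.56). Adjustment was by Benjamini-Hochberg over 11220 probes, and errors are standard errors of this fit. The fit was tested on simulated data. Probes were named from the platform annotation, 10558 with 1 gene, 0 with several and 662 unnamed here, and 10551 matched the RefSeq table of GRCm38.p6. A gene with several probes (1917 genes) was represented by the probe with the highest mean, and 9 of 260 such called genes had a probe of opposite sign. Coordinates of probes are not used here, and the promoter sequences are RefSeq's. Replicate numbers did not pair the arrays, since the deviations of same-numbered arrays correlated at -0.137, 0.0176 and -0.0495.

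The genes, the 33 gene lists and the tests were chosen with earlier results of these data known. Named were the 12 largest rises and 12 largest falls, 3 called members of each list (4 in lists of over 20 measured genes) by absolute difference, and a set of genes picked by role. Other list members, the genes of neighbouring runs and the markers left out of summed signals were picked after their values were seen. The closing section gives the effect of other background correction, scaling, filters, probes, call rules and omitted arrays.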

Additional observations from a re-analysis of the deposited data

Results flagged for a closer look

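The authors' log2 table leaves out probes detected on fewer than 3 arrays, which removes signals that appear in 1 group alone. In the deposited table of signals, 143 probes outside the log2 table were detected on both LPS arrays and on no other array. The comparison does not use them. Detection on the second LPS array rests on the recovered limit, and how many probes would be so detected by chance was not tested. Another 199 were detected on both unstimulated arrays and on no other. With all probes kept and quantile normalised, 29 of the 14477 probes left out rose after LPS and 2 fell by the same rule, with a largest rise of 3.12 on the log2 scale. These probes have no gene name here.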

How the results depend on the processing

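No called gene changed sign under any of the alternatives that refit the values, but the number of calls followed the background correction, the scaling and the threshold. With normexp background correction 737 genes rose and 1030 fell, and with no scaling 217 rose and 1592 fell. At the adjusted p alone 2135 rose and 2335 fell, and 425 list memberships passed in place of 247 (253 with each gene's most different probe). Of 1056 pairs of a list count and an alternative, 77 moved by over 1.5 times, 36 of them at the adjusted p alone, 25 with no scaling and 6 with normexp correction. With no scaling 26 ribosomal proteins in place of 16 fell, and 16 genes of the citric acid cycle and respiratory chain in place of 7. Median scaling gave 470 and 494, and all probes without a filter gave 432 and 550. With the replicate block the counts were again 439 and 542, and this fit changed no call. Leaving out 1 array at a time gave 439 to 457 genes that rose, 542 to 555 that fell, 105 to 108 named genes, 247 to 251 list memberships and 85 to 88 named genes that differed between LPS and ROS. A group with 1 array left is then assumed to vary like the others. Of 1638 pairs of a named gene and an alternative, 3 changed sign, all below the threshold to begin with: Itgax at 0.19 with median scaling, and Nfkbia at -0.0036 and Cd80 at -0.25 with no scaling. A further 11 lost the call: Nfkbiz, Nfkbie, Socs3, Npc2, Gla, Myd88 and Nos2 with no scaling, Ctsh and Tk1 with median scaling, and Ctsk and Ctsh without the second LPS array. Ccr7, H2-Ab1 and Hk2 (no scaling), Irf1 (median scaling) and Tnfaip3 (without the first unstimulated array) gained it. Alternatives for the promoter motifs and for LPS against ROS were chosen after seeing the data. The cause of these shifts was not tested. The main limits are 2 arrays per group, fold changes compressed for dim genes, an unstated culture time of the controls, and overall signal that was lower on the LPS arrays.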

Other observations

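Of the called genes, 318 that rose and 425 that fell belong to none of the lists. The genes below include members of the 12 largest changes in each direction, and the others were chosen after their values were seen. Serpinb2, a serpin of activated macrophages, stood at 8.05 and 7.99 in unstimulated cells and at 12.74 and 12.55 after LPS, a rise of 4.63 on the log2 scale. Timp1, an inhibitor of matrix proteases, went from 10.84 and 10.87 to 14.94 and 14.86, a rise of 4.04. Pdpn, the mucin-like podoplanin, rose by 3.98, Inhba, a subunit of activin, by 3.48, and Il33, an alarmin, by 3.07. Neural and vascular signalling genes were among them too, with Npy, a neuropeptide, at 3.39, Slc6a4, the serotonin transporter, at 3.53 and Edn1, a vessel-constricting peptide, at 2.71. Spic, a factor of iron-recycling macrophages, was at least 11.6-fold higher by its brighter probe, although its other probe differed by only 1.29. Siglec1, a sialic acid receptor, rose by 3.06. Sqstm1, an autophagy receptor, went from 12.81 and 12.61 to 14.96 and 15.09, a rise of 2.32.

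Among falls outside the lists, Selenbp1 went from 12.09 and 12.28 to 7.72 and 7.39 and was at least 23.9-fold lower, and Mgarp was at least 13.7-fold lower, each above background on 1 LPS array. Pygl, a glycogen phosphorylase, fell by 3.43. Sort1, a sorting receptor, fell by 3.90, although its 4 probes ranged up to -0.26. F13a1, a clotting factor subunit, was at least 9.44-fold lower. Slc2a3, a glucose transporter, fell by 3.01, Tfrc, the transferrin receptor, by 2.43 and Ffar2, a receptor for short-chain fatty acids, by 3.28. Pparg, a factor of lipid handling, and its co-activator Ppargc1b fell by 2.40 and 2.81. Coro1a, an actin regulator, went from 12.43 and 12.47 to 9.63 and 9.67, and fell by 2.80, and its 4 probes ranged from -3.03 to -1.72.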
